A study of Mus musculus with 18 samples.

Results

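The circRNAs of XPO4 KO NIH/3T3 cells were compared between cytoplasmic RNA and whole cell RNA. The comparison took 4 of the 18 libraries of the study, 2 of the cytoplasm and 2 of the whole cell, chosen by their sample titles. Together these 4 libraries listed 15251 circRNAs, each a pair of genome positions with its count of junction reads. A circRNA missing from the list of a library was entered as 0 reads.

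NIH/3T3 is a line of mouse embryonic fibroblasts. The KO cells carry a CRISPR-Cas9 edit of Xpo4, and the sources used here do not say whether they are 1 clone. The WT cells are the parental line without the edit. RNA of the nucleus, the cytoplasm and the whole cell was digested with RNase R, which degrades linear RNAs and spares most circRNAs, before sequencing. The WT libraries of the cytoplasm and the whole cell (2 of each) and the 2 KO libraries of the nucleus were used beside the 4 KO libraries. No separate cultures are named for the 2 libraries of a group, so p-values measure the spread between these libraries, which may be technical. The edgeR tests below estimate this spread partly from all circRNAs tested, and not from the replicates of 1 circRNA alone.

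A circRNA forms when a downstream splice site of a gene is joined to an upstream one, a step called backsplicing. Most circRNAs of this kind hold only exons and are found in the cytoplasm, so that whole cell RNA contains the cytoplasmic pool together with the nuclear one. Long introns beside the circularized exons, often with sequences that pair with each other, are a known aid to backsplicing. XPO4 is an exportin, a carrier that takes cargo out of the nucleus, and the study examined it as an exporter of circRNAs.

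Xpo4 mRNA was counted at 712, 504 and 687 reads in the 3 KO and 657, 614 and 685 reads in the 3 WT mRNA libraries. A CRISPR-Cas9 edit can leave the mRNA level as it is, so these counts do not check the genotype. All 8 fibroblast markers were above 1 FPKM in the KO mRNA libraries, where they summed to between 2741 and 2829 FPKM, against 1.16 to 1.29 for 6 blood cell markers. The 2 cytoplasmic libraries held 50629 and 63335 junction reads and the 2 whole cell libraries 58165 and 50341. The spread between replicates exceeded counting noise, with a chi-square per circRNA of 2.37 in the cytoplasm and 2.01 in the whole cell.

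The joined ends of 8 circRNAs show what was counted. They are the 4 most read in the cytoplasm, 1 of those seen only in the cytoplasm, 2 of those seen only in the whole cell, and that of Hipk3, a circRNA known in many cell types. In each sequence the small letters are the end of the last exon and the capitals are the start of the first exon, so the step from small letters to capitals is the backsplice junction, read 5′ to 3′ on the strand of the gene in GRCm38.
Nfix exon 2: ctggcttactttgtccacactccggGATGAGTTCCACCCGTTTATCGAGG
Pvt1 exon 2: agctccctctaaaatGTCTGATTTTCTTAA
Cacna1c exons 2 and 3: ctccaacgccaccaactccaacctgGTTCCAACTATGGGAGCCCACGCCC
Bnc2 exons 2 and 3: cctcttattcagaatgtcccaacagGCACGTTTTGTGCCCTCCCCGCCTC
Rad52 exons 10 and 11: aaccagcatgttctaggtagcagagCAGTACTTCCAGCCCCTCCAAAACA
Sh3rf3 exons 2 and 3: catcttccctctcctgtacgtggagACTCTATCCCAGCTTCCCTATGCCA
Psmd2 exons 9 to 11: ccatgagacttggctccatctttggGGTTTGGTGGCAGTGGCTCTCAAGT
Hipk3 exon 2: atctcgctactacagGTATGGCCTCACAAG
The circle of Nfix lies at chr8:84771784-84772315 on the minus strand, and that of Pvt1 at chr15:62107148-62107465 on the plus strand. Cacna1c is at chr6:119052601-119057515 and Bnc2 at chr4:84546205-84555904, both on the minus strand. Rad52 is at chr6:119920110-119921028 on the plus strand. Sh3rf3 is at chr10:58983921-59007137 and Psmd2 at chr16:20656543-20657609, both on the plus strand, and Hipk3 is at chr2:104470749-104471847 on the minus strand. The exons of Nfix, Cacna1c, Bnc2, Rad52, Sh3rf3 and Psmd2 are coding at the junction, that of Hipk3 holds a start or stop codon, and Pvt1 is a noncoding RNA gene. All 15251 circRNAs were flanked by the AG and GT of splice sites, and 15247 had both ends on annotated exon edges. Positions of 98 circRNAs matched several genes, so their host is uncertain, and 50 were assigned to no gene.

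The lists of the 2 fractions overlapped in part. The cytoplasm listed 9418 circRNAs and the whole cell 10488, and 4655 were in both. That is 49.4% of the cytoplasmic and 44.4% of the whole cell list. A further 4763 were listed in the cytoplasm only and 5833 in the whole cell only. Replicates of a fraction overlapped far more, since 84.9% of the cytoplasmic and 87.2% of the whole cell circRNAs were in both libraries of their fraction. Matching ends within 5 bases in place of identical ends gave 4669 shared circRNAs. Requiring at least 5 reads in each fraction left 2717. How the lists were filtered before deposit is not given in the sources used here, and a 0 may be a filtered circRNA as well as one without reads. In RNA of many cells, fewer cells with a circRNA and less of it per cell cannot be told apart.

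The shared circRNAs carried most of the reads. They held 62.5% and 72.7% of the junction reads of the cytoplasmic libraries and 70.3% and 60.8% of those of the whole cell libraries. CircRNAs with many reads were listed in the other fraction more often than those with few. Of the cytoplasmic circRNAs with 1 or 2 reads in that fraction, 36.6% were also in the whole cell list, against 77.1% at 20 to 49 reads and 98.6% of the 212 with 50 or more. For the whole cell circRNAs, the shares were 28.7%, 94.7% and 98.8% of 168, with the lowest, 27.6%, at 3 to 5 reads. Between 20 and 49 cytoplasmic reads, 254 of 1108 circRNAs had no whole cell read, whereas 33 of 624 whole cell circRNAs at that level had no cytoplasmic read.

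**Figure D1:**
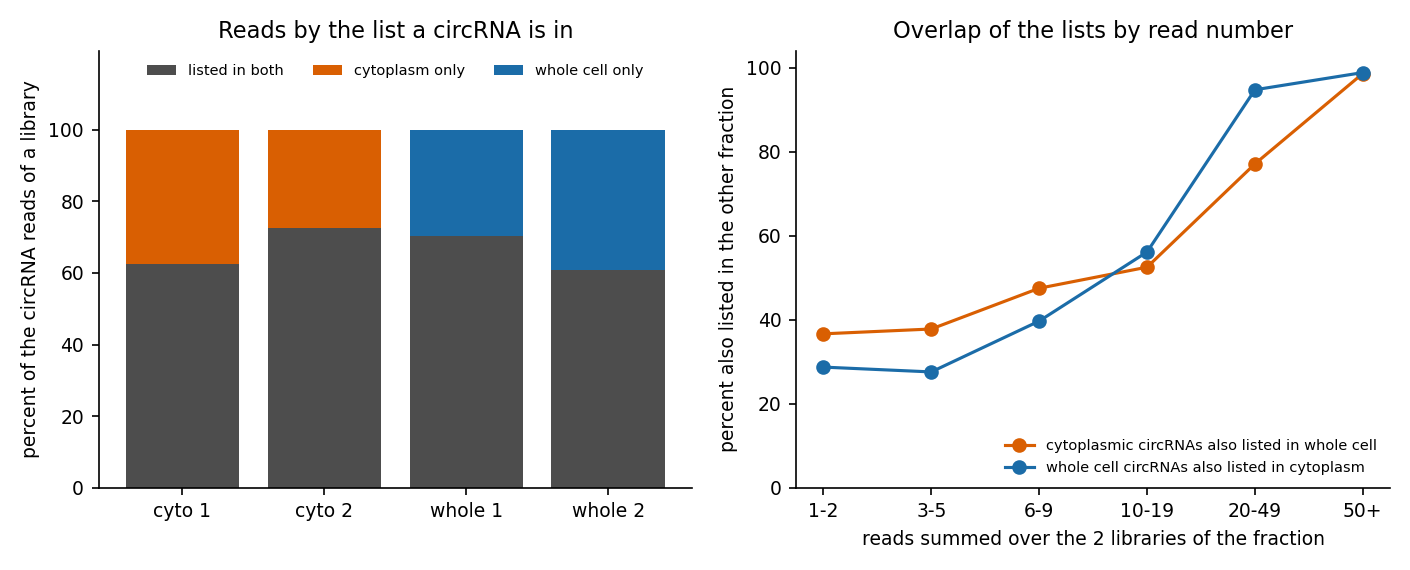
Left, the percentage of the junction reads of each KO library (y axis) that lay on circRNAs listed in both fractions, in the cytoplasm only or in the whole cell only; n = 1 library per bar. Right, the percentage of circRNAs also listed in the other fraction (y axis) against their reads summed over the 2 libraries of their own fraction (x axis): the lowest and highest group are at 36.6% and 98.6% for the cytoplasm, and the whole cell goes from 28.7% over 27.6% to 98.8%.

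Each library was given 1 level, the mean over its listed circRNAs of log10 reads. This level was 0.588 ± 0.0157 (SD, n = 2) in the cytoplasm and 0.550 ± 0.00153 (SD, n = 2) in the whole cell. The difference of 0.0377 is a ratio of 1.09 and gave p = 0.33 in a two-sided exact permutation test, the smallest p that 2 libraries against 2 allow. Both cytoplasmic libraries were above both whole cell libraries. Over the 3798 circRNAs listed in all 4 libraries the difference was 0.0200, with p = 0.67 in the two-sided exact permutation test. With reads scaled to the lowest total it was 0.0180, with p = 0.67 in the two-sided exact permutation test. In neither of these versions were both cytoplasmic libraries above both whole cell libraries.

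The order of the circRNAs by reads differed between the fractions over the whole lists. It was more alike among circles with many reads in both. Over all 15251 circRNAs with absent ones as 0, Spearman's correlation between a cytoplasmic and a whole cell library averaged -0.0617 (range -0.0977 to -0.0237 over the 4 pairs), against 0.897 between the cytoplasmic and 0.872 between the whole cell replicates. Over the 4655 shared circRNAs the mean was 0.297 (0.222 to 0.386), and the replicates reached 0.782 and 0.722. These values describe circRNAs measured in the same 4 libraries, which are not independent replicates, and low counts hold many ties and zeros. Entering absent circRNAs as 0 lowers the correlation of lists that overlap in part. Among circRNAs with at least 20 reads in both libraries of a pair, the correlation was 0.526 to 0.651 between fractions (77 to 240 circRNAs) and 0.609 and 0.645 between replicates (178 and 137 circRNAs). Summed over host genes, the mean between fractions was 0.540 over 4646 hosts.

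The same division by fraction was present in the WT cells. Over the 15545 circRNAs of the 8 cytoplasmic and whole cell libraries of both genotypes, the correlation was 0.562 to 0.591 between KO and WT cytoplasm and 0.537 to 0.572 between KO and WT whole cell. It was -0.0784 to -0.00735 between KO cytoplasm and KO whole cell, and -0.0212 to -0.00397 between WT cytoplasm and WT whole cell. Of the circRNAs listed only in the KO cytoplasm, 97.9% were in a WT cytoplasmic list and 1.32% in a WT whole cell list. Of those listed only in the KO whole cell, 98.1% were in a WT whole cell list and 1.46% in a WT cytoplasmic list. The 2 genotypes therefore held nearly the same list within a fraction. Fraction and any step of preparation or listing done by fraction cannot be told apart in these libraries.

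**Figure D2:**
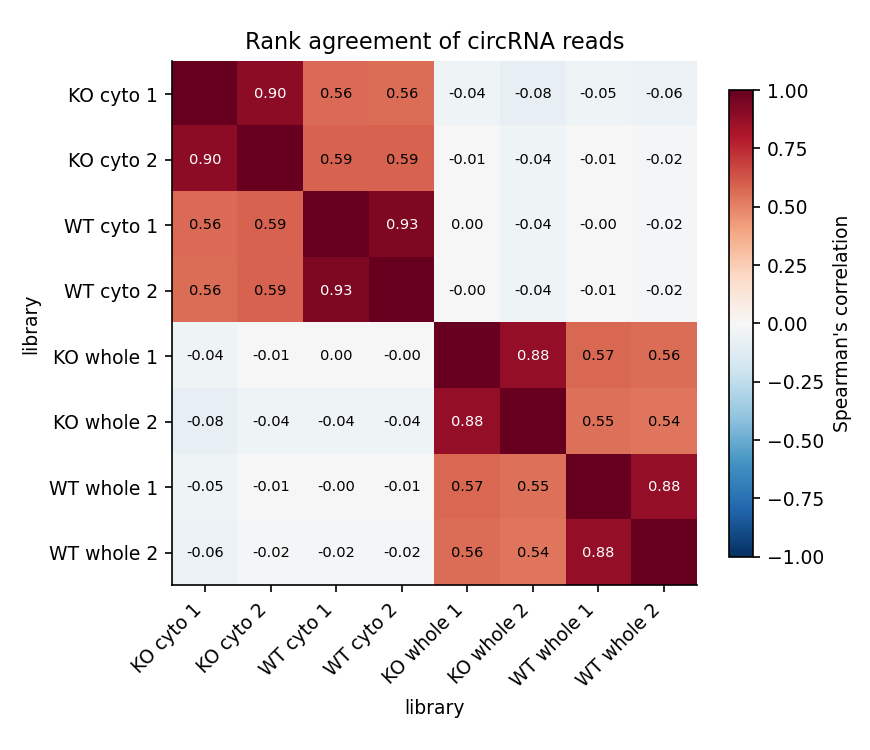
Spearman's correlation of junction reads between each pair of 8 libraries (both axes), over the circRNAs listed in any of them with absent ones as 0; colour gives the correlation from -1 to 1. KO and WT libraries of the same fraction reach 0.537 to 0.591, and libraries of different fractions stay near 0.

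Few of the circRNAs listed in the whole cell only were also listed in the KO nucleus. Of those 5833, 72 (1.23%) were in a KO nuclear list, against 46 (0.966%) of those listed only in the cytoplasm and 416 (8.94%) of the shared ones. The KO nuclear lists together held 1148 circRNAs, of which 614 (53.5%) were in neither of the other fractions. Those 614 carried 41.8% and 47.3% of the nuclear reads. The nuclear libraries were shallow, at 3743 and 4383 junction reads, so circRNAs of few reads could be missed there. Among circles with both ends on exon edges of 1 transcript and 20 or more reads over the 4 libraries, the shares differed too. They were 13.6% of 2419 shared, 0.395% of 253 cytoplasm-only and 2.86% of 35 whole-cell-only circles. At 10 to 19 reads they were 4.14%, 0.749% and 1.64%. The part of depth in these shares was not tested.

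The most read circRNA of the whole cell came from exon 2 of Nfix, a transcription factor gene. It had 682 and 685 reads in the cytoplasm and 681 and 677 in the whole cell, and the 4 libraries lay within 8 reads of each other. Exon 2 of Pvt1, a noncoding RNA gene beside Myc and the most read in the cytoplasm, gave 436 and 1282 reads in the cytoplasm and 566 and 569 in the whole cell. The 2 cytoplasmic libraries stood on either side of the whole cell ones. Exons 2 and 3 of Cacna1c, a subunit of a voltage-gated calcium channel, gave 199 and 200 reads in the cytoplasm and 394 in each whole cell library. Exons 2 and 3 of Bnc2, a zinc finger protein, gave 139 and 256 against 44 and 43. In the edgeR test over all circRNAs below, none of these 4 passed, with adjusted p-values of 0.907 for Nfix, 0.900 for Pvt1, 0.490 for Cacna1c and 0.175 for Bnc2. For Cacna1c and Bnc2 the reads of the fractions did not overlap. Their log2 fold changes of cytoplasm over whole cell were -1.28 ± 1.52 (SE) and 1.89 ± 1.22 (SE). Such an SE rests on a spread shared with other circRNAs, while the replicates of Nfix and Cacna1c themselves lay close together. DESeq2 called Bnc2, with an adjusted p of 0.0342.

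The lists of the 10 most read circRNAs in each fraction shared 6 members. Beside Nfix, Pvt1 and Cacna1c these were the circles of Nsd2 and Kat6b, both chromatin-modifying enzymes, and of the methyltransferase Mettl9. Nsd2 had 76 and 305 reads in the cytoplasm and 267 and 180 in the whole cell, Kat6b 64 and 211 against 201 and 73, and Mettl9 48 and 253 against 307 and 146. In all 3 the replicates of a fraction lay further apart than the means of the fractions. The others of the cytoplasmic 10 were Bnc2, Vapa, Dtnb and Alg12, and those of the whole cell 10 were Tulp4, Rasa2, Ube2k and Cped1. All were listed in both fractions, and none passed the edgeR test. Of the 100 most read circRNAs of each fraction 69 were shared, and of the 500 most read 267.

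**Figure D3:**
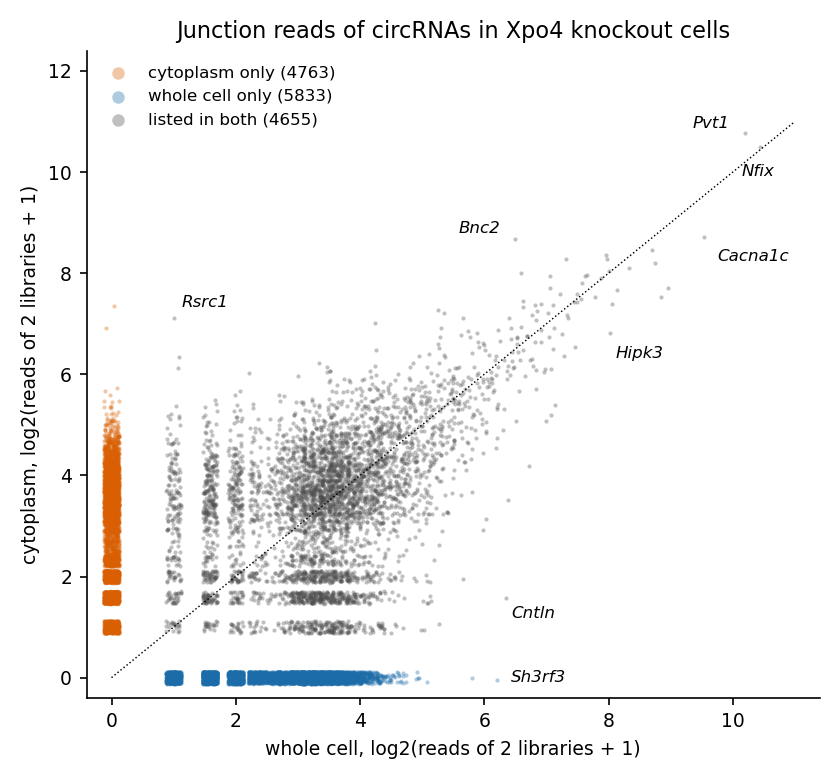
Reads of each of the 15251 circRNAs in the whole cell (x axis) and the cytoplasm (y axis), as log2 of the reads summed over 2 libraries plus 1, with a small random offset so that equal counts do not hide each other; the dotted line marks equal reads. The abundant circles lie along the line, while the 4763 cytoplasm-only and 5833 whole-cell-only circles lie on the axes at lower reads, up to 74 for Sh3rf3 in the whole cell.

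The most read circle was taken of each host gene whose circRNA the study followed in 3T3 cells. It need not be the circle that the study followed. That of Hipk3, a protein kinase gene, had 14 and 98 reads in the cytoplasm and 170 and 88 in the whole cell. Its fractions overlapped, and its log2 fold change of -1.45 ± 1.15 (SE) did not pass the test (adjusted p = 0.281, edgeR). The most read circle of Specc1, a cytoskeletal protein, covered exons 6 to 10 and had 18 and 21 reads against 14 and 5 (adjusted p = 0.365). The circle of exons 18 and 19 of Wwc1, a regulator of Hippo signalling, had 10 reads in each cytoplasmic library and none in the whole cell. No circRNA of Adarb1, an RNA-editing enzyme, was listed in these 4 libraries.

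The edgeR test (quasi-likelihood, with library totals scaled by the TMM method) took the circRNAs with at least 10 reads over the 4 libraries. Of 6970 tested, 4134 (59.3%) passed the threshold of 0.05 on the adjusted p. Of these, 2077 (29.8%) were higher in the cytoplasm and 2057 (29.5%) were lower. All 1613 tested circRNAs of the cytoplasm only and all 1337 of the whole cell only were called. They passed the minimum of 10 reads only through the fraction that listed them, so these calls add nothing to the lists. The shared circRNAs gave 1184 calls among 4020 tested, 464 higher and 720 lower in the cytoplasm. In 1143 of these 1184 the reads of the fractions did not overlap. Over all 6970 circRNAs tested the share was 75.3%, which also counts those of the cytoplasm only and the whole cell only. Those have no reads in the other fraction, so 75.3% is not the share among shared circRNAs. Of the 542 shared circRNAs with at least 50 reads, 51 were called, 31 higher and 20 lower.

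The number of calls rested on each library. It fell to 2277 or 2292 without whole cell replicate 1 or 2, and to 2088 or 2428 without cytoplasm replicate 1 or 2, where the lone library of a fraction is taken to vary like the others and fewer circRNAs reached 10 reads. The calls then leaned to the fraction with 2 libraries, with 1749 of 2277 and 1857 of 2292 higher in the cytoplasm without a whole cell library, and 476 of 2088 and 819 of 2428 without a cytoplasmic one. Without any scaling of the libraries 1325 were called, 857 higher and 468 lower.

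Among the circRNAs of the cytoplasm only, that of exons 10 and 11 of Rad52, a DNA repair gene, gave 59 and 56 reads against 0 in both whole cell libraries. This is at least 31.2-fold higher against a floor of 3 reads over both libraries. Such bounds, here and below, hold only where a 0 is a lack of reads and not a filtered circRNA. The circles of Tenm4 (28 and 25 reads), Smg1 (26 and 20) and Dse (24 and 21) followed. These are a cell surface protein, a kinase of RNA surveillance and an enzyme of dermatan sulfate synthesis. In the WT cells the Rad52 circle had 62 and 77 cytoplasmic reads and 0 in both whole cell libraries. Tenm4 had 0 and 1 in the WT cytoplasm.

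In the whole cell only, exons 2 and 3 of Sh3rf3, a scaffold of the JNK pathway, gave 38 and 36 reads against 0 in both cytoplasmic libraries, at least 30.3-fold higher. Exons 9 to 11 of Psmd2, a proteasome subunit, gave 26 and 28 reads, at least 22.1-fold higher. Senp1, a SUMO protease, had 15 and 17, Cd2ap, an adaptor of the actin cytoskeleton, 16 and 16, and Shprh, a DNA repair helicase, 12 and 17. The Psmd2 circle had 17 and 19 reads in the WT whole cell and 0 in the WT cytoplasm. The Sh3rf3 circle had 0 and 1 in the WT whole cell. Cd2ap was listed in both WT fractions, with 23 and 27 cytoplasmic and 14 and 15 whole cell reads.

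The 10 circRNAs with the smallest p in each direction, among those with both ends on exon edges of 1 gene, were of this kind too. The 10 higher in the cytoplasm came from Trappc8, Pik3c2a, Crtc1, Ahcyl2, Cttn, P4ha2, Zc3h7a, Ppp4r3a, Rnf114 and Ankrd10, each with 14 to 19 reads in either cytoplasmic library and 0 in the whole cell. The 10 lower ones came from Shprh, Cd2ap, Senp1, Fhl2, Sdf4, Zfp644, Hnrnpm, Sec24a, Prc1 and Psmd14, with 9 to 18 reads in either whole cell library and 0 in the cytoplasm. Their p-values are no support, since each circle was tested only through the fraction that listed it.

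Differences were also seen among shared circRNAs with at least 50 reads. Those named here were chosen after their values were seen, as the 6 with the smallest p in each direction. The circles of Rsrc1, Glis3, Cntln and Ttc7b had 0 reads in 1 library of the lower fraction and 1 to 3 in the other. Exons 2 and 3 of Rsrc1, a splicing regulator, gave 78 and 64 reads in the cytoplasm and 0 and 1 in the whole cell, a log2 fold change of 6.55 ± 1.32 (SE, adjusted p = 1.24e-05, edgeR). Glis3, a transcription factor, had 2 such circles that share exon 4. The circle of exon 4 alone had 33 and 34 reads against 1 and 0, and that of exons 3 and 4 had 36 and 39 against 0 and 1. The other 3 were those of Rnf145, a ubiquitin ligase (27 and 23 against 2 and 1), Cpa6, a carboxypeptidase (25 and 23 against 2 and 1), and AW554918 (32 and 33 against 2 and 2).

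Among those lower in the cytoplasm, exons 6 to 12 of Cntln, a centrosome protein, gave 0 and 2 reads in the cytoplasm and 64 and 14 in the whole cell, a log2 fold change of -5.34 ± 1.07 (SE, adjusted p = 1.03e-05, edgeR). Ttc7b had 3 and 0 against 24 and 23, and Foxp4, a transcription factor, 3 and 4 against 27 and 31. Brinp1 had 4 and 4 against 28 and 31, Stk35, a protein kinase, 4 and 6 against 56 and 25, and Oxr1, an oxidation resistance gene, 4 and 7 against 23 and 27. In all 12 circles each library of the higher fraction was above both of the lower one. Without cytoplasm replicate 2 Brinp1 lost its call (adjusted p = 0.0548), and Oxr1 lost it without cytoplasm replicate 1 (0.115) or 2 (0.0647). With a block for the replicate number Stk35 (0.0507) and Oxr1 (0.0558) lost their calls, and without scaling Cntln (0.0976), Ttc7b (0.0798), Stk35 (0.0614) and Oxr1 (0.0546) did.

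**Figure D4:**
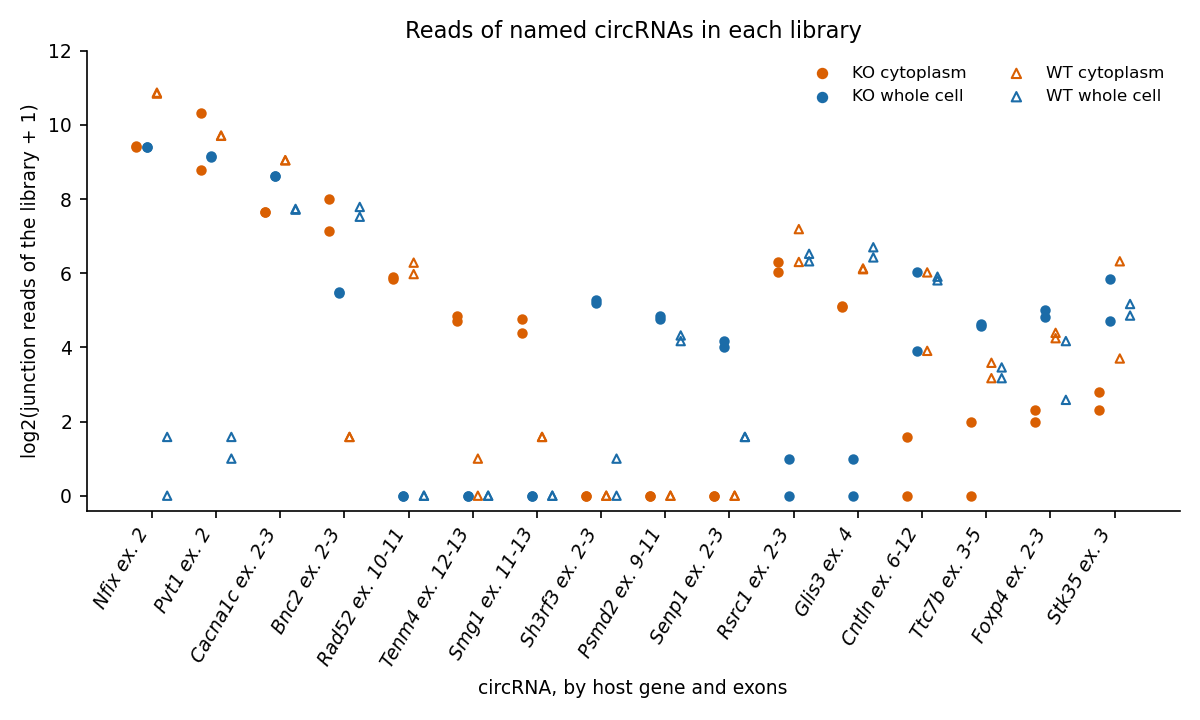
Junction reads of 16 named circRNAs in each library, as log2(reads + 1) on the y axis, by host gene and exons on the x axis; filled circles are KO, open triangles WT, orange cytoplasm and blue whole cell, with 2 libraries per group. The 6 circles at the right differ between the KO fractions, and Rsrc1 and Glis3 are high in both WT fractions.

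The shared circRNAs had longer introns beside them than those of 1 fraction. The median upstream intron was 10008 bases for the shared circRNAs, 4918 for those of the cytoplasm only and 5034 for those of the whole cell only. Downstream introns had medians of 7551, 3607 and 3661 bases. The difference was present at equal reads. Among circRNAs with 10 to 19 reads, the geometric mean of both introns had a median of 8021 bases for 1546 shared, 4282 for 1336 cytoplasm-only and 4943 for 1280 whole-cell-only circles. At 1 to 4 reads the medians were 6977, 4330 and 4186 bases. Shared circles also began at the second exon of their transcript more often, in 35.3% against 24.8% and 26.5%. Circles of 1 exon made up 5.64%, 2.73% and 3.34%, and this order did not hold at every read level, with 3.90% of shared and 4.44% of cytoplasm-only circles at 5 to 9 reads. GC content was alike, with medians of 47.9%, 48.3% and 47.9%. No test was run on these medians, since circles of 1 library and 1 host are not independent.

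The spliced length differed between the fractions. It had a median of 475.5 bases for shared circles, 514 for those of the cytoplasm only and 567 for those of the whole cell only. Of the 2292 circRNAs of 1000 or more bases, 1168 (51.0%) were listed in the whole cell only, 674 (29.4%) in the cytoplasm only and 450 (19.6%) in both. Of the 7267 with 300 to 599 bases, the shares were 32.9%, 32.1% and 34.9%. Per library, circles of 1000 or more bases made up 11.6% and 11.9% of the cytoplasmic and 15.5% and 15.2% of the whole cell list. They held 8.58% and 7.23% of the cytoplasmic and 11.6% and 13.0% of the whole cell reads. Both whole cell libraries were above both cytoplasmic ones, and 2 against 2 libraries cannot give an exact permutation p under 0.33. The WT libraries gave 9.20% and 9.83% of reads in the cytoplasm and 12.6% and 13.0% in the whole cell. They had no part in this comparison but held nearly the same list within a fraction, so they are no separate support. Among the shared circRNAs that were called, those lower in the cytoplasm had a median length of 551 bases and those higher 447.

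**Figure D5:**
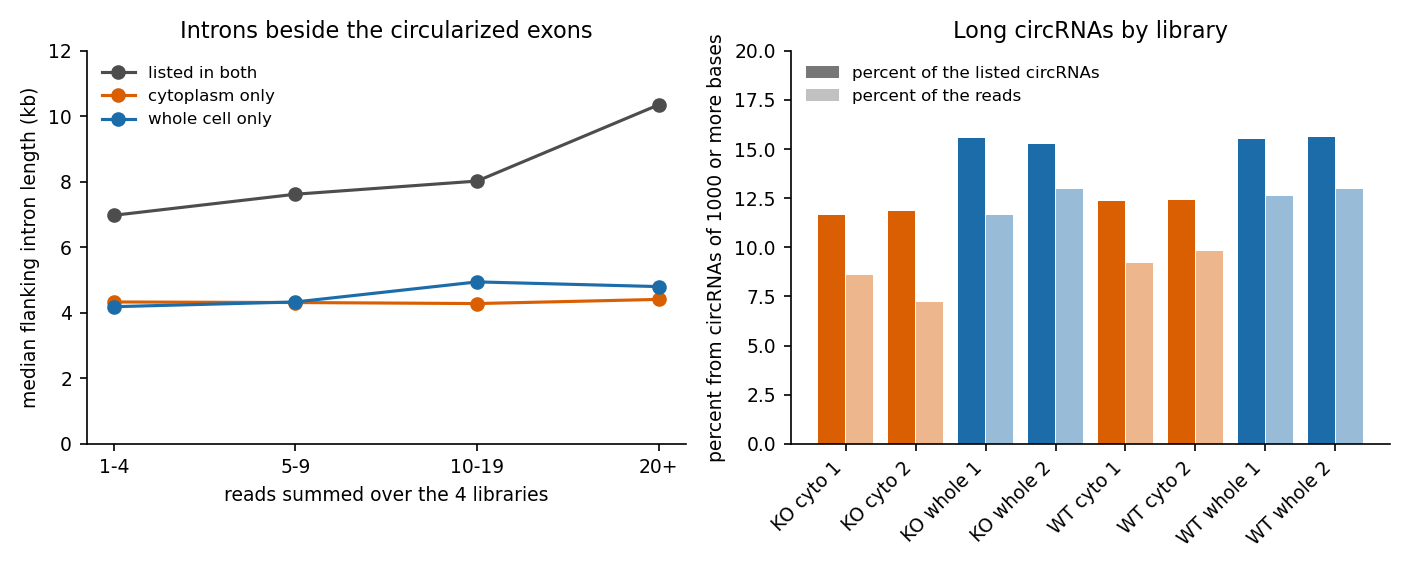
Left, the median flanking intron length (y axis, kb, geometric mean of both introns) of shared, cytoplasm-only and whole-cell-only circRNAs against their reads over 4 libraries (x axis): shared circles have the longest introns at each read level. Right, the percentage of listed circRNAs (full colour) and of reads (pale) from circles of 1000 or more bases in each library (orange cytoplasm, blue whole cell); on both measures all 4 whole cell libraries are above all 4 cytoplasmic ones.

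Circles listed in 1 fraction often used splice sites of the other. Of the 4763 circRNAs of the cytoplasm only, 2273 (47.7%) shared their start or end with a whole cell circRNA, and 404 (8.48%) shared each end with one while the pair itself was not listed there. For the 5833 of the whole cell only the counts were 2786 (47.8%) and 570 (9.77%). Their host genes were mostly in both lists, since 79.3% of the cytoplasm-only and 78.9% of the whole-cell-only circles had a host with a circle in the other fraction.

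By host gene the overlap was larger. The cytoplasmic circRNAs came from 3690 genes and the whole cell ones from 3857, and 2901 genes were in both, 78.6% and 75.2% of the 2 lists. Of these 2901, 582 had no circle in common between the fractions. In all, 1603 genes had both a cytoplasm-only and a whole-cell-only circle. Birc6, a large ubiquitin ligase that inhibits apoptosis, had the most circles, 35, of which 9 were shared, 12 in the cytoplasm only and 14 in the whole cell only. Its summed reads were 82 and 86 against 84 and 85. Chd2, a chromatin remodeller, had 34 circles with 3 shared, and 64 and 68 reads against 71 and 90. Nbea, Vps13b and Arhgap10 followed with 29, 27 and 26 circles, and none of the 5 genes passed the test on summed reads. Taken per circle, host mRNA levels of the 3 kinds were alike, with median FPKM values in KO cells of 8.44, 8.25 and 8.28. A host counts here once for each of its circles. Taken per host gene, the medians were 8.46 for hosts in both fractions, 8.23 for the cytoplasm only and 8.12 for the whole cell only.

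Of 3372 host genes tested on summed reads with edgeR, 1457 (43.2%) were called, 686 (20.3%) higher and 771 (22.9%) lower in the cytoplasm. Without whole cell replicate 2 the calls fell to 462, and without whole cell replicate 1 to 958. Among the 2730 hosts tested that were in both fractions, 815 were called. All 340 tested hosts of the cytoplasm only and all 302 of the whole cell only were called, and they passed the minimum of 10 reads only through that fraction, so their calls add nothing to the lists. The groups of genes below were read against these shares. In each group the share of tested hosts that was called lay below the 43.2% of all hosts tested. No group was tested as a set. In each group the most read hosts are given as chosen by rule, and the called ones were named after their values were seen.

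Genes of nuclear transport, among them Xpo4, gave 9 calls among 25 tested, against 43.2% of all hosts tested. Of these 9 calls, 3 were higher and 6 lower in the cytoplasm. Xpo4 had 3 circles, all listed in the whole cell only, with 12 and 15 summed reads against 0 and 0 in the cytoplasm, at least 10.1-fold lower there. Exons 8 to 12 gave 5 and 9 of these reads, exons 2 to 4 gave 6 and 4, and exons 4 to 7 gave 1 and 2. In the WT cells the same circles had 10 and 9 whole cell and 0 and 0 cytoplasmic reads. Xpo7, another exportin, showed the reverse, with 15 and 14 cytoplasmic reads and none in the whole cell (WT 6 and 9 against none). Cse1l, the exportin of importin alpha, had 43 and 37 against 17 and 8, and Ranbp2, a filament protein of the nuclear pore, 32 and 38 against 8 and 11. Xpo5 had 3 and 7 against 13 and 18, and Ipo5, an importin, 0 and 0 against 5 and 9. WT reads of Xpo5 ran the other way, at 17 and 19 in the cytoplasm against 9 and 9 in the whole cell. Those of Cse1l were 19 and 18 against 15 and 11, those of Ranbp2 8 and 3 against 4 and 6. Ipo5 had 0 and 0 against 3 and 8 in WT. The calls of Cse1l (adjusted p = 0.140), Ranbp2 (0.0565) and Xpo5 (0.140) were lost without whole cell replicate 2, and that of Xpo5 also without cytoplasm replicate 1 (0.0753). DESeq2 did not call Ranbp2 (0.0539), Cse1l (0.0788) or Xpo5 (0.159), and without scaling Cse1l (0.0682), Ipo5 (0.0710) and Xpo5 (0.0836) lost their calls. Of the 4 most read hosts of the group, Cse1l was called and Ipo7 (33 and 70 against 82 and 59), Ipo11 (65 and 63 against 31 and 38) and Tnpo3 (21 and 56 against 65 and 54) were not, with adjusted p-values of 0.340, 0.142 and 0.254 in edgeR.

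Matrix and adhesion genes of fibroblasts gave 8 calls among 19 tested, against 43.2% of all hosts tested. Of these 8 calls, 7 were higher and 1 lower in the cytoplasm. Col3a1, a fibrillar collagen, had 18 and 13 cytoplasmic reads and 0 in both whole cell libraries, at least 9.21-fold higher. The integrin genes Itgav (9 and 7), Itga9 (10 and 6) and Itga5 (9 and 6) had no whole cell read either, nor had Col1a2 (4 and 7). Itgb1, the partner chain of these integrins, had 25 and 19 against 4 and 7, and Adamts6, a matrix protease, 14 and 9 against 0 and 2. Cdh2, the N-cadherin of cell contacts, was the 1 lower host, with 3 and 2 against 18 and 20. The WT reads of the same circles ran the same way for Itgav, at 14 and 22 against 0 and 0, and for Itgb1, at 20 and 13 against 2 and 6. Col3a1 had 0 and 2 reads in the WT cytoplasm. Without whole cell replicate 2 the adjusted p-values of Itga5, Itga9, Col1a2, Adamts6 and Itgb1 were 0.0531, 0.0598, 0.0694, 0.0534 and 0.0550, and without whole cell replicate 1 that of Itgb1 was 0.0618. Of the 24 host genes in this group 8 were listed in the cytoplasm only and 2 in the whole cell only, against 789 and 956 of all 4646. The 5 called hosts without a whole cell read were tested only through the cytoplasm. DESeq2 did not call Adamts6 (0.0501) or Itgb1 (0.0785), and without scaling Itga5 (0.0520), Itga9 (0.0629), Col1a2 (0.0682) and Adamts6 (0.0710) lost their calls. The most read hosts, Adam10 (58 and 74 against 45 and 39), Adamts12 (42 and 29 against 44 and 39), Col5a1 (15 and 41 against 31 and 25) and Nid1 (20 and 31 against 11 and 12), did not pass.

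Splicing and RNA-binding genes gave 7 calls among 20 tested, 4 higher and 3 lower, against 43.2% of all hosts tested. Tnrc6c, a partner of Argonaute, had 28 and 22 reads against 3 and 6, and Rbm39 21 and 21 against 5 and 5. The splicing factor gene Srsf1 was higher too, at 10 and 15 against 1 and 1. Qk, an RNA-binding protein known to promote circRNA formation, had 3 and 8 against 21 and 19. Sf3a1 and Prpf8, both core spliceosome proteins, had 0 and 0 against 6 and 11 and 8 and 9 against 19 and 22. In the WT cells Tnrc6c ran the same way, at 64 and 64 against 5 and 4, and Prpf8 the other way, at 49 and 47 against 12 and 8. Without whole cell replicate 2 the calls of Qk (adjusted p = 0.0806), Srsf1 (0.0676), Prpf8 (0.0584) and Rbm39 (0.0512) were lost, and without cytoplasm replicate 2 that of Prpf8 (0.0612). DESeq2 did not call Rbm39 (0.0683), Qk (0.0755) or Prpf8 (0.218), and without scaling Qk (0.0643) and Sf3a1 (0.0727) lost their calls. Mbnl2 (31 and 111 against 72 and 40), Tnrc6b (40 and 34 against 31 and 27) and Zfr (33 and 30 against 27 and 25), among the most read hosts, were not called.

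Chromatin regulators gave 8 calls among 33 tested, 3 higher and 5 lower, against 43.2% of all hosts tested. Chd1, a chromatin remodeller, had 40 and 37 reads against 4 and 6, a log2 fold change of 2.75 ± 0.358 (SE, adjusted p = 0.00834, edgeR). Nsd1, a histone methyltransferase, had 9 and 15 against 30 and 38, and its call was lost without whole cell replicate 2 (adjusted p = 0.0885), with DESeq2 (0.0812) and without scaling (0.0579). The most read hosts of the group, Nsd2, Kat6b, Ezh2 and Chd2, were not called. Ubiquitin ligases gave 10 calls among 24 tested, 6 higher and 4 lower. Nedd4 had 14 and 21 against 0 and 1, whereas its relative Nedd4l had 2 and 0 against 10 and 10. Huwe1 had 12 and 13 against 33 and 34, and Cblb 5 and 6 against 21 and 29. Ube3c had 57 and 50 against 16 and 21. The call of Nedd4l was lost without whole cell replicate 2 (adjusted p = 0.0888) and without scaling (0.0659), and that of Ube3c without whole cell replicate 1 (0.147) or 2 (0.0829). DESeq2 did not call Nedd4l (0.0573), Ube3c (0.0838) or Huwe1 (0.0992). Birc6, Rad18 and Herc2, among the most read hosts here, were not called.

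Regulators of small GTPases gave 6 calls among 25 tested, 3 in each direction, against 43.2% of all hosts tested. Tiam1, an activator of Rac, had 17 and 16 reads against 47 and 50, and Arhgef12 11 and 10 against 2 and 1. The call of Arhgef12 was lost without whole cell replicate 2 (adjusted p = 0.0598) and with DESeq2 (0.0870), which also missed Tiam1 (0.0501). Of the most read hosts, Trio, which also activates Rac, had 47 and 46 against 95 and 83 (adjusted p = 0.0490, edgeR) and lost its call without any 1 of the 4 libraries (0.137 to 0.274), with DESeq2 (0.211), without scaling (0.0520) and with the replicate block (0.179), and Arhgap10 and Arhgap32 were not called. Kinases of growth factor signalling and adhesion gave 4 calls among 14 tested, 1 higher and 3 lower. Pdgfra had 12 and 10 against 1 and 1, while Egfr had 0 and 0 against 8 and 8, and Axl 1 and 3 against 10 and 11. Without whole cell replicate 2 Pdgfra (adjusted p = 0.0505) and Axl (0.0694) lost their calls, and DESeq2 called neither (0.0527 and 0.0970). Ptk2, Fgfr2, Insr and Fgfr1, with the most reads, were not called.

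TGF-beta and BMP receptors and Smads gave 3 calls among 13 tested, against 43.2% of all hosts tested. Of the called hosts Acvr1b was higher, at 31 and 34 against 13 and 13. Smad5, at 1 and 3 against 8 and 9, and Tgfbr2, at 1 and 0 against 5 and 4, were lower. Without whole cell replicate 1 or 2 Acvr1b had an adjusted p of 0.129 or 0.110, and Smad5 had 0.0940 without whole cell replicate 2 and 0.0973 without cytoplasm replicate 1. Tgfbr2 had 0.176 without cytoplasm replicate 2. DESeq2 called none of the 3 (0.184 to 0.223), and without scaling Smad5 (0.0586) and Tgfbr2 (0.0768) lost their calls. The most read hosts of this pathway, Smad1, Smad4, Tgfbr3 and Acvr2a, did not pass. Hosts of circRNAs known from other tissues gave 3 calls among 16 tested. Asxl1, a chromatin regulator, was higher, at 4 and 9 against 0 and 0. Zfp609, whose circRNA is known from muscle, had 0 and 0 against 7 and 5, and Rims2, a synaptic protein, 10 and 9 against 19 and 21. Asxl1 lost its call without whole cell replicate 2 (adjusted p = 0.107) and without scaling (0.103), and Rims2 lost it without any 1 of the 4 libraries (0.0509 to 0.168) and with DESeq2 (0.304). Pvt1, Tulp4, Rere and Crim1, the most read of these hosts, were not called.

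The cytoplasm to whole cell ratio was then compared between the KO and the WT cells, as the interaction of fraction and genotype in an edgeR fit over the 8 libraries. Of 13729 circRNAs tested, 1022 (7.44%) were called, 586 (4.27%) with a higher and 436 (3.18%) with a lower ratio in KO. Of 4435 host genes 715 (16.1%) were called, 364 (8.21%) higher and 351 (7.91%) lower. Of the 4655 circRNAs shared by the KO fractions, 946 were called. The 13729 also include circRNAs listed in the same fraction only in both genotypes. Those have no ratio to compare, so 7.44% is not the rate among circRNAs with reads in both fractions. All of the circRNA calls were lost without either KO whole cell library, where 0 circRNAs passed edgeR's adjusted test and 1634 (without replicate 1) or 1629 (without replicate 2) had an unadjusted p under 0.05. DESeq2 called 150 with all libraries.

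The Nfix circle had 1837 and 1871 reads in the WT cytoplasm and 2 and 0 in the WT whole cell, so its ratio differed between the genotypes (log2 -10.2, adjusted p = 0.00512). In the KO cells its 4 counts were nearly equal. The Pvt1 circle behaved alike, with 834 and 838 WT cytoplasmic and 1 and 2 WT whole cell reads (log2 -8.03, adjusted p = 0.0113). The Bnc2 circle ran the other way, with 2 and 2 reads in the WT cytoplasm and 220 and 183 in the WT whole cell (log2 9.15, adjusted p = 0.000328). Cacna1c had 528 in each WT cytoplasmic and 209 and 212 in the WT whole cell libraries, the reverse order of the KO cells, and the difference did not pass (adjusted p = 1). Rsrc1 and Glis3, near 0 in the KO whole cell, had 91 and 79 and, for the circle of exon 4, 103 and 85 reads in the WT whole cell. Counts near 0 in 1 fraction may reflect a step of preparation or listing done by fraction, which was not tested. The ratios in this paragraph are therefore not read as a change of location in KO.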

How the data were processed

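The authors sequenced RNase R-treated RNA, removed adapters with cutadapt, ran find_circ (version 1.2) and deposited, for each library, circRNA positions (GRCm38, mm10) and whole-number counts of junction reads without normalization. Their mRNA counts came from HISAT2 and featureCounts (version 2.0.0). Column headings in the mRNA tables name the other genotype, and sample titles were followed. FPKM was computed here from those counts.

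Rows were joined by identical chromosome, start and end. Exon edges and host genes came from GENCODE M21. Tests used edgeR 4.0.16 (glmQLFit, glmQLFTest, TMM, R 4.3.3) with Benjamini-Hochberg adjustment, a threshold of 0.05 and at least 10 reads over the libraries of a fit, and were first run on simulated counts. DESeq2 1.42.0 was an alternative. The SE of a fold change was its size over the square root of the F statistic. The floor of a 0 was 3 reads over both libraries. Depth was 50341 to 63335 reads per library, and intervals and floors cover counting error only, since no molecular identifiers are named. WT reads of a host gene were summed over circles listed in a KO library.

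Circles named are the 10 most read per fraction and the 10 called with the smallest p per direction. The latter were taken where fractions do not overlap and ends lie on exon edges of 1 gene. Further ones are the 5 most read of 1 fraction only and the most read circle of each host the study followed. Hosts named are the 5 with most circles and up to 4 most read ones of each gene list. Called members of those lists and 12 shared circles were named after their values were seen. Members, lists and tests were chosen with earlier results of these data known. The extraction text in the labels mentions peripheral blood, while the labels name NIH/3T3 cells throughout. Some circles and hosts that these rules name are not reported here, and counts over lists include them.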

Additional observations from a re-analysis of the deposited data

Results flagged for a closer look

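For 13 named circRNAs the cytoplasm to whole cell ratio differed between the KO and WT cells by the interaction term of the edgeR fit (adjusted p under 0.05), on a scale of log2 KO over WT. The ratio was lower in KO for the circles of Nfix (-10.2), Pvt1 (-8.03), Cd2ap (-7.47), Ttc7b (-3.47), Foxp4 (-3.34) and Oxr1 (-2.97). It was higher in KO for those of Bnc2 (9.15), Rsrc1 (6.93), Glis3 exon 4 (6.71), Glis3 exons 3 and 4 (6.43), AW554918 (6.12), Cpa6 (4.31) and Rnf145 (3.97). Over all 13729 circRNAs tested, 1022 (7.44%) were called, and of the 4655 shared by the KO fractions 946 were. The circles of Cd2ap, Ttc7b, Foxp4, Oxr1, Rsrc1, Glis3, AW554918, Cpa6 and Rnf145 were chosen by small p between the KO fractions. The interaction test uses the same KO counts again, so this choice favours a call. Fitted values for circles with a group at 0 or 1 read depend on the prior count and are no bound. None of the 13 passed when either KO whole cell library was left out, since that fit made 0 calls. The cause was not tested.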

How the results depend on the processing

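The count of 4134 called circRNAs moved by over 1.5 times with no scaling (1325), no filter on low counts (7132) and at least 20 reads (669, of which 423 higher), and ran from 2088 to 2428 with 1 library left out. The scalings moved the median log2 fold change of all tested circRNAs from -0.09 (TMM) to 0.12 (totals) and 0.19 (none), and the share of calls that were higher from 50.2% to 64.7% with no scaling, 39.7% with no filter and 63.2% at 20 reads (host genes from 47.1% to 57.3% with no scaling). Called host genes, 1457, fell to 811 with no scaling and 764 with DESeq2, and to between 462 and 1095 with 1 library left out. The 1022 calls of the KO against WT ratio fell to 22 with no scaling and 150 with DESeq2, and lay between 0 and 955 with 1 library left out. Shared circRNAs numbered 2717 at 5 or more reads per fraction, and 4384 to 4484 with 1 library left out. The mean rank correlation across fractions was 0.297 over shared circRNAs, 0.540 over host genes and -0.0352 at 20 or more reads over the 4 libraries. Pearson's r of log2(reads + 1) was 0.0607, and the rank correlation was -0.112 to -0.0708 with 1 library left out. The level kept its direction in all 6 alternatives, and no p was below 0.33. A block for the replicate number gave calls for 4043 circRNAs, 1519 host genes and 1089 ratios. Deviations of same-numbered libraries correlated at -0.170, so the numbers were not taken to pair them. Crossed pairs, added after the data were seen, gave 3964 circRNA and 1618 host calls. None of the 40 called named circles or 58 called named hosts changed sign, and 13 of 519 and 137 of 607 of their alternative values missed the threshold. Without whole cell replicate 2, 35 of the 58 hosts lost their call. Called circles and hosts with 0 reads in both libraries of 1 fraction could not change sign. The other called circles were chosen by their small p, so the kept signs are no support. Of 16 circles and 39 hosts named that were not called, 8 and 19 changed sign at least once. The cause of these changes was not tested. At 50341 to 63335 reads per library, circles with under 10 reads were tested only where the filter was dropped.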
